A study of Mus musculus with 5 samples.

Results

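Non-tip tumour endothelial cells are the blood vessel lining cells of a tumour that carry little or no RNA of the sprouting tip cell program. Here they were 1042 of 42516 kept cells from 5 mouse synovial sarcoma (SyS) tumours profiled by single-cell RNA sequencing. The cells were chosen from their own counts. A cell needed at least 750 detected genes and at most 25% of its unique molecular identifiers (UMIs, which count captured RNA molecules) on mitochondrial genes. It also needed a UMI of at least 4 of the 8 endothelial genes Pecam1, Cdh5, Kdr, Emcn, Cldn5, Egfl7, Plvap and Flt1. Of 3126 cells that met these criteria, 625 were set aside for 5 or more UMIs of the tumour cell gene Adgrb3, 44 for more than 3 UMIs of the macrophage genes C1qa, C1qb and C1qc, and 256 for more than 2 UMIs of the pericyte gene Rgs5. The remaining 2201 endothelial cells were split by the summed UMIs of 4 tip cell genes, Esm1, Apln, Pgf and Angpt2. The 1042 cells with a sum of at most 1 were the non-tip cells, and the 1159 cells with a sum of 2 or more were the tip cells. Just inside the tip limit lay 353 non-tip cells with a sum of 1, and just outside it 196 cells with a sum of 2. Just inside the endothelial limit lay 159 non-tip cells with 4 of the 8 genes, while 255 cells with 3 of them fell outside.

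The tumours arose in mice of mixed strain that carry the hSS2 allele, which expresses human SS18::SSX2, the fusion oncogene of SyS, from the Rosa26 locus once TATCre protein is injected into the limb. Every tumour carried the fusion, so there was no sample of normal vessels, and all were collected when the host became morbid. Part of each tumour was dissociated, freed of red blood cells by lysis and loaded onto droplets for 3′ libraries, and adjacent tissue gave the histology in the label. Labels gave biphasic (BP, 2 tumours), mixed monophasic and biphasic (MP+BP, 1 tumour), monophasic (MP, 1 tumour) and a mixture of poorly differentiated with monophasic areas (PD+MP, 1 tumour). The labels of both BP tumours share a leading number whose meaning was not stated, and whether they came from 1 animal was not stated either. Lists of 5 values follow the order BP replicate 1, BP replicate 2, MP+BP, MP and PD+MP.

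Vessels are lined by endothelial cells whose gene programs differ along the vascular tree. Arterial cells express the Notch ligands Dll4 and Jag1, ephrin Efnb2 and gap junction connexins. Venous cells express the transcription factor Nr2f2 and the ephrin receptor Ephb4 and, in small venules, selectins that slow passing leukocytes. Capillary cells carry channels and carriers for exchange with the tissue. In growing tumours, sprouts are led by tip cells, which secrete Esm1 and Angpt2 and lay down basement membrane, and the cells behind them form the lumen.

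The PD+MP tumour held far fewer non-tip cells than the 4 other tumours. There were 207, 267, 334, 212 and 22 non-tip cells, which made up 3.10%, 2.58%, 3.59%, 2.75% and 0.260% of kept cells. The exact binomial 95% interval was 0.163% to 0.394% for PD+MP, and the lowest bound among the others was 2.28%, for BP replicate 2. Such intervals cover counting error only. The 3 tumours with BP in the label averaged 3.09% ± 0.50 (SD, n = 3) and the 2 without it 1.504% ± 1.76 (SD, n = 2). That difference of 1.58 percentage points gave p = 0.2 in a two-sided exact permutation test, where 0.1 was the smallest p the design allows. It rested on PD+MP, since without that tumour the difference from MP alone, at 2.75%, was 0.34 percentage points. Among all endothelial cells, the non-tip share was 37.4%, 54.0%, 65.5%, 36.7% and 32.8%. MP+BP had the highest share, with an interval of 61.2% to 69.6% that lay above those of the other tumours, the highest of which ended at 58.5%. The BP tumours differed from each other, with a mean of 45.7% ± 11.7 (SD, n = 2), and their intervals did not overlap. With cells thinned to 2000 UMIs before the tip rule, there were 267, 268, 344, 300 and 33 non-tip cells against 204, 127, 79, 213 and 27 tip cells, so non-tip cells were then the larger class in each of the 5 tumours.

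**Figure D1:**
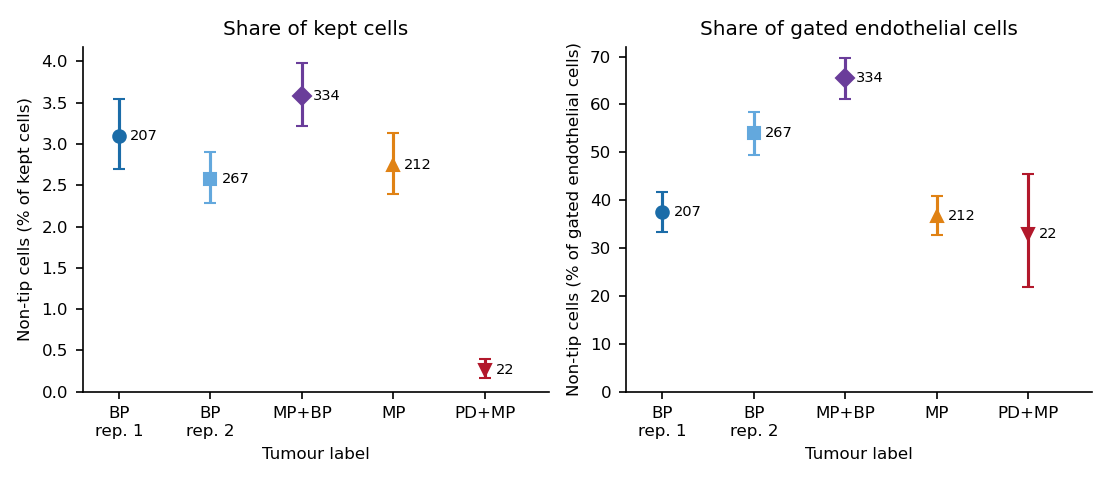
Share of non-tip endothelial cells by tumour, as percent of kept cells and as percent of all endothelial cells, with exact binomial 95% intervals for counting error. PD+MP lies at 0.260% of kept cells against 2.58% to 3.59% in the other tumours, and MP+BP has the highest share of endothelial cells, 65.5%.

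Non-tip cells were shallow. They held 927361, 1182258, 1594596, 789917 and 105646 UMIs in all, so values of PD+MP carry the widest error. The median was 3049.5 UMIs per non-tip cell and 6382 per tip cell. A fixed limit of 1 UMI passes a shallow cell more easily, and depth and class went together. Where shares of cells with a UMI are compared, each cell was therefore thinned to 2000 UMIs, which kept 765 non-tip cells (146, 183, 254, 163 and 19). Mitochondrial genes took 5.30%, 3.96%, 4.80%, 5.51% and 5.64% of non-tip UMIs, against 3.43% to 4.39% in the tip sums. Of all cell barcodes called, 231 occurred in more than 1 library. They included the barcodes of 8 non-tip cells, and no barcode belonged to non-tip cells of more than 1 tumour.

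Endothelial markers were seen in most non-tip cells. After thinning, Cdh5, the adhesion molecule of endothelial junctions, was seen in 87.3% of non-tip cells, against 0.8% of macrophages and 0.2% of tumour cells used as comparators. Emcn, a sialomucin of veins and capillaries, was seen in 72.8%, Gpihbp1 in 58.8% and Aqp1 in 58.3%, each at under 1% of both comparators. Pecam1 was seen in 82.4% of non-tip cells but also in 9.7% of macrophages and 10.3% of tumour cells. Cdh5, Pecam1 and Emcn were part of the rule, and comparator cells were taken with at most 1 of its 8 genes, so the shares of these genes on both sides are a description of the choice. Gpihbp1 and Aqp1 were not part of it. Of 7 lymphatic genes, Lyve1 and Ccl21a had no UMI in any non-tip cell. At least 1 lymphatic gene was seen in 170 of 765 thinned cells (22.2%) and at least 2 in 12 (1.57%), while no thinned cell held 3.

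A minority of non-tip cells also carried RNA of tumour cells. In 78 cells (7.49%), the 8 endothelial genes of the rule took less than 0.3% of UMIs. These cells were deep, with a median of 7092 UMIs against 2896 in the other 964, and held 920052 UMIs against 3679726 in the others. They also held 74.4% of the UMIs of 9 tumour cell genes (595 against 205 in the others), namely Adgrb3, Sox2, Cbln4, Nxph1, Spint1, Esrp1, Epcam, Zic1 and Nnat. EGFP, an entry added to the reference, was seen in 21 of the 78 and in 5 of the 964. Among tip cells the share under 0.3% was 2.59%. A total of 842 non-tip cells (80.8%) had no UMI of the 9 tumour cell genes. Many of the sums compared below are therefore also given for the 964 cells at 0.3% or more, called the endothelial-rich cells, a limit chosen after the data were seen. Doublet scoring marked 8, 13, 30, 3 and 0 non-tip cells.

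**Figure D2:**
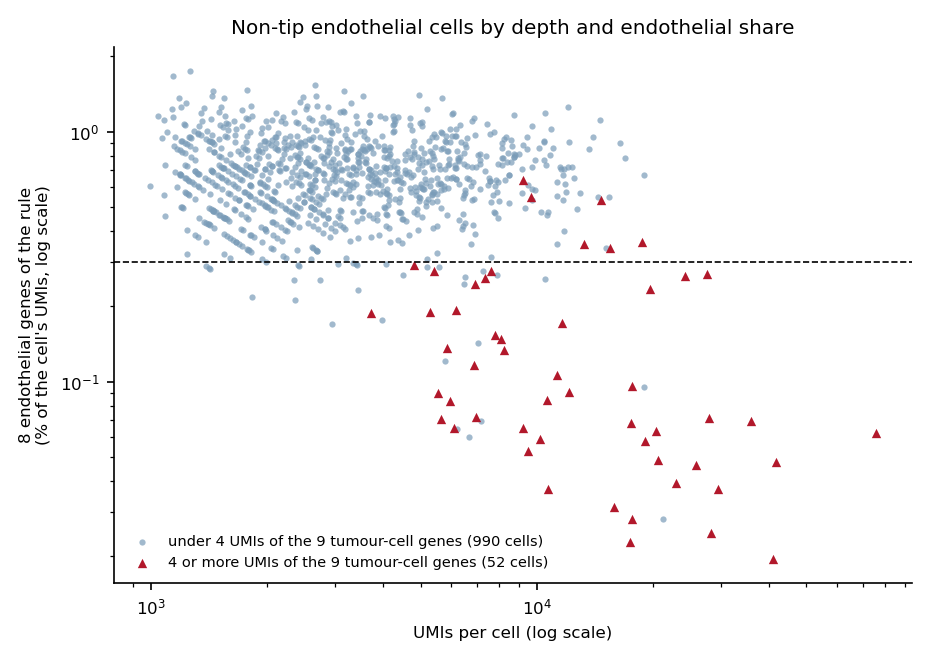
Each point is 1 non-tip cell, placed by its total UMIs and by the percent of them on the 8 endothelial genes of the rule (both axes log), with triangles for cells that hold 4 or more UMIs of tumour cell genes and a dashed line at 0.3%. The 52 triangles (4.99%) lie mostly at high UMI totals, and 46 of them are among the 78 cells under 0.3%.

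Capillary genes were widespread in every tumour, and their levels followed the label only in part. Levels are UMIs of a gene per 1e+06 UMIs (CPM) of the summed non-tip cells, and in such sums more cells with a transcript and more RNA per cell cannot be told apart. Gpihbp1 (chr15:75596628-75599481, + strand, build GRCm38, as for all positions here), which holds lipoprotein lipase on the capillary wall, stood at 713, 857, 390.1, 739 and 416 CPM. MP+BP and PD+MP were low and the other 3 tumours high, so the order did not follow the biphasic label, and the BP mean was 785 ± 102 (SD, n = 2). In PD+MP the 95% Poisson interval was 303 to 559 CPM, from 44 UMIs in 10 of 22 cells. The water channel Aqp1 (chr6:55336432-55348555, + strand) stood at 849.7, 1018, 924, 282 and 530.1 CPM. All 3 biphasic-label tumours were above the other 2, and MP was lowest, with an interval of 246 to 322 CPM. The share of thinned cells with Aqp1 gave the same split, at 64.4%, 63.9%, 68.1%, 32.5% and 47.4%.

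Other capillary genes were ordered differently. Rgcc (chr14:79288756-79301645, - strand), a cell cycle regulator common in capillaries, stood at 203, 219, 512, 563 and 379 CPM. Both BP tumours were low, with a mean of 211 ± 11.6 (SD, n = 2), and MP+BP and MP were high. Rbp7 (chr4:149449687-149454978, - strand), a carrier of retinol inside the cell, stood at 343, 413, 299, 437 and 709.9 CPM. The tumours from BP to MP lay close together, and the high PD+MP value fell to 341 without the cell of that tumour that held most of it. Cd300lg, an adhesion receptor of capillary and venular cells, stood at 17.3, 23.7, 53.9, 60.8 and 104 CPM, low in both BP tumours. The homeobox factor Meox2 was low in the same tumours, at 7.55 and 3.38 CPM, against 48.9, 32.9 and 47.3. Btnl9 stood at 55.0, 60.1, 40.1, 93.7 and 94.7 CPM, so the 2 tumours without BP in the label were above the rest.

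Fabp4 and Cd36, genes of fatty acid uptake, were low outside PD+MP, where their high values came largely from 1 cell. The carrier Fabp4 stood at 1.08, 0, 6.27, 24.1 and 5604 CPM and the transporter Cd36 at 0, 0.846, 17.6, 7.60 and 738 CPM. In PD+MP, 587 of 592 Fabp4 UMIs and 73 of 78 Cd36 UMIs came from the same cell. That cell of 8797 UMIs also held 42 of the 75 Rbp7 and 16 of the 20 Fabp5 UMIs of the tumour, together with 22 UMIs of Cdh5 and 10 of Pecam1. The PD+MP levels of these genes therefore describe that cell. Car4, a carbonic anhydrase of capillary walls, stood at 7.55, 9.30, 26.3, 5.06 and 0 CPM. Timp4 had UMIs in BP replicate 1 and PD+MP only, at 2.16 and 18.9 CPM, and Tcf15 ranged from 9.47 to 26.2 CPM.

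Of the venous genes, Nr2f2, Ephb4, Nrp2 and Aplnr had UMIs in every tumour and differed in how level they were. Nr2f2, which sets venous fate, stood at 71.2, 39.7, 74.6, 92.4 and 114 CPM. BP replicate 2 was lowest, and the 3 biphasic-label tumours were all below the other 2. The gap was narrow, since the interval for PD+MP ran from 58.7 to 198 CPM. Nr2f2 was also seen in 69.7% of mural cells after thinning. Ephb4, the receptor for ephrin Efnb2, was nearly level, at 64.7, 71.0, 80.3, 76.0 and 66.3 CPM. Nrp2, a receptor for semaphorins and a VEGF co-receptor, stood at 197, 246, 209, 142 and 161 CPM, but was also seen in 29.7% of macrophages and 18.7% of tumour cells. The apelin receptor Aplnr stood at 39.9, 33.8, 122, 156 and 66.3 CPM. Both BP tumours were low, with a mean of 36.9 ± 4.29 (SD, n = 2).

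Tll1 was highest in the BP tumours, while Vwf was high in the BP tumours and in PD+MP. Vwf (chr6:125546774-125686679, + strand), the clotting protein stored in endothelial granules, stood at 371, 259, 124, 65.8 and 303 CPM. Its share among thinned cells was 47.3%, 35.5%, 21.7%, 11.04% and 31.6%, against 0.6% of macrophages and 0.1% of tumour cells. MP was lowest on both scales, and the interval for PD+MP, 207 to 428 CPM, covered the values of both BP tumours. Tll1, a secreted metalloprotease, stood at 138, 134, 18.2, 8.86 and 37.9 CPM, with UMIs in 44, 65, 19, 5 and 3 cells. Both BP tumours were above the 96.9 CPM at which the PD+MP interval ended.

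Venule adhesion genes came from small groups of cells. Selp (chr1:164115264-164150026, + strand), the P-selectin that captures leukocytes, stood at 149.9, 15.2, 55.8, 63.3 and 104 CPM. In BP replicate 1 a single cell held 111 of the 139 UMIs, and the level without it was 30.5 CPM. The chemokine scavenger Ackr1 stood at 24.8, 0, 2.51, 5.06 and 0 CPM, and 1 cell of BP replicate 1 held all 23 UMIs there. E-selectin, Sele, stood at 52.8, 5.92, 28.8, 50.6 and 0 CPM. Vcam1, which binds leukocyte integrins and was seen in 49.1% of macrophages, stood at 86.3, 20.3, 69.0, 39.2 and 123 CPM. BP replicate 2 was the lowest of the tumours for Selp and Vcam1. Lrg1, Ptgs1 and Cpe were low throughout, at 4.23 to 37.9, 0 to 20.7 and 7.60 to 16.1 CPM. Csrp2, a LIM domain protein, stood at 505, 575, 339.9, 282 and 426 CPM and was also seen in 43.8% of tumour cells.

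Arterial genes were present in every tumour, and 4 of them, Efnb2, Dll4, Sox17 and Nrp1, stayed within a narrow band. Ephrin Efnb2 stood at 403, 384, 312, 320.3 and 293 CPM, and the Notch ligand Dll4 at 266, 242, 219, 253 and 179.8 CPM. Sox17, a factor of arterial fate, stood at 149, 142, 156, 151 and 94.7 CPM, and the PD+MP interval of 45.4 to 174 CPM covered the other values. The VEGF and semaphorin co-receptor Nrp1 stood at 350.5, 345, 341, 357 and 284 CPM. Of the other Notch genes, Jag1 stood at 106, 93.9, 70.9, 45.6 and 85.2 CPM, Jag2 at 37.9 to 63.6, Hey1 at 37.9 to 109 and Hey2 at 0 to 10.996 CPM.

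The connexin genes, which join arterial cells by gap junctions, were held by fewer cells. Gja4 (chr4:127311421-127314039, - strand) stood at 50.7, 99.8, 45.2, 78.5 and 133 CPM, from 47, 118, 72, 62 and 14 UMIs in 17, 44, 37, 29 and 6 cells. The order did not follow the label, and PD+MP was highest, with an interval of 72.4 to 222 CPM that covered the values of BP replicate 2 and MP. Gja4 was seen in 29.1% of mural cells but in only 0.1% of macrophages and 0.2% of tumour cells. Gja5 stood at 22.6, 22.8, 9.41, 15.2 and 94.7 CPM and was highest in PD+MP, where its interval of 45.4 to 174 CPM lay above the other values. That value rests on 10 UMIs. The kinase gene Bmx (chrX:164192842-164258193, - strand) stood at 20.5, 39.7, 15.7, 21.5 and 28.4 CPM. Fbln5, which builds elastic fibres, was lower in the 3 biphasic-label tumours, at 53.9, 79.5 and 84.7 CPM, than in MP and PD+MP, at 91.2 and 189. The netrin receptor gene Unc5b stood at 124, 121, 44.5, 110.1 and 66.3 CPM. Stmn2 ranged from 16.5 to 114 CPM, with its lowest value in MP, Ltbp4 from 115 to 199, Sema3g from 16.2 to 37.9 and Edn1 from 7.61 to 27.6 CPM.

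**Figure D3:**
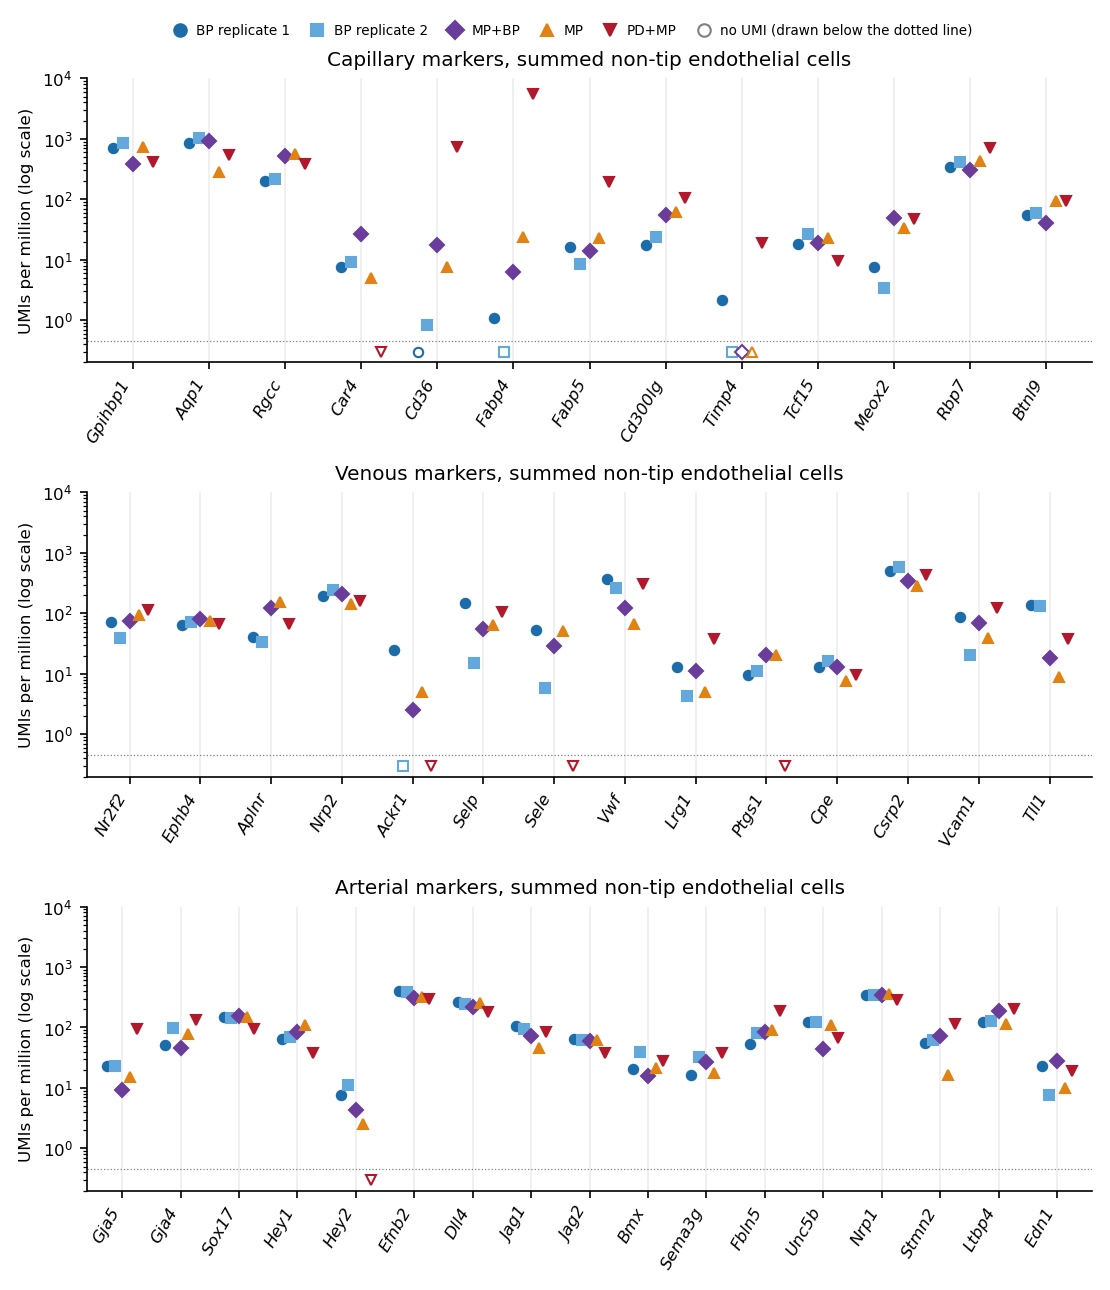
Level of 13 capillary, 14 venous and 17 arterial genes in the summed non-tip cells of each tumour, in CPM on a log axis, 1 symbol per tumour, with open symbols under the dotted line where a tumour had no UMI. Aqp1 separates the biphasic-label tumours (849.7 to 1018 CPM) from MP and PD+MP (282 and 530.1 CPM), while Efnb2, Dll4 and Nrp1 stay within a narrow band.

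Within single cells pooled over tumours, arterial genes occurred together, and so did venule genes. The shares that follow pool the 765 thinned cells of all tumours and are descriptions, since cells of 1 tumour are not replicates and more RNA of any kind raises every share. Of the 68 cells with Gja4, 66.2% also held Efnb2, against 38.7% of the 697 without it. For Hey1 the shares were 35.3% against 12.8%, for Bmx 20.6% against 3.59%, for Sema3g 17.6% against 2.87% and for Gja5 13.2% against 1.72%. Not every tumour gave this order, since none of the 4 cells with Gja4 in PD+MP held Hey1, Bmx or Sema3g. In MP, Efnb2 was seen in 41.2% against 39.0%. Rbp7, from the capillary list, was also more frequent in cells with Gja4, at 63.2% against 27.3%, and in each tumour taken alone. By tumour its shares ranged from 47.1% to 77.8% among cells with Gja4 and from 22.5% to 36.2% among cells without it. Of the 32 cells with Sema3g, 71.9% held Rbp7, against 28.6% of the rest. Gpihbp1 was seen in 48.5% of cells with Gja4 and 59.8% of those without, but MP and PD+MP had the opposite order, at 64.7% against 57.5% in MP.

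The 26 cells with Selp, from 2 in BP replicate 2 to 11 in MP+BP, differed from the rest in pooled shares. Sele was seen in 34.6% of them against 2.30% of the other 739, Vcam1 in 38.5% against 5.68%, Nr2f2 in 34.6% against 9.74% and Nrp2 in 50.0% against 23.8%. In BP replicate 2 no cell with Selp held Nr2f2 or Nrp2, and in PD+MP none held Sele. Gpihbp1 was less frequent in cells with Selp, at 30.8% against 59.8%, while Aqp1 was seen in 57.7% and 58.3%. The order for Gpihbp1 was the same in each tumour, but the gap was narrow in MP+BP, at 45.5% against 49.8%. None of the 26 cells held Gja4, which allows a share of up to 11.5%, against 9.20% of the others. A count of 0 in so few cells thus does not separate the sets. The 446 cells with Aqp1 more often held Vwf than the 319 without it, at 36.3% against 16.0%, and this order was seen in each of the 5 tumours. The 125 cells with Aplnr held Rgcc in 54.4% against 32.5%, but the shares were 51.4% against 50.0% in MP and 33.3% against 37.5% in PD+MP. The 35 cells with Stmn2 more often held Ltbp4, at 57.1% against 18.5%, and less often Gpihbp1, at 22.9% against 60.5%. Only 22 of these 35 were endothelial-rich cells. Among endothelial-rich cells the shares were 59.1% against 18.1% for Ltbp4 and 27.3% against 64.1% for Gpihbp1.

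Many cells could not be placed on 1 branch by these counts. At least 3 of the 17 arterial genes were seen in 365 thinned cells (47.7%), with 54.1%, 49.7%, 44.5%, 43.6% and 57.9% by tumour. At least 3 of the 14 venous genes were seen in 158 cells (20.7%), with 21.9%, 19.1%, 23.6%, 15.3% and 31.6%. Capillary genes reached 3 in 304 cells (39.7%), with 33.6%, 38.3%, 44.9%, 38.7% and 42.1%. The lists differ in size and in how common their genes are, so shares of different lists are not comparable. Both arterial and venous genes reached 3 in 67 cells (8.76%), and neither did in 309 (40.4%). At 2000 UMIs a cell without a gene's UMI may still express it.

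**Figure D4:**
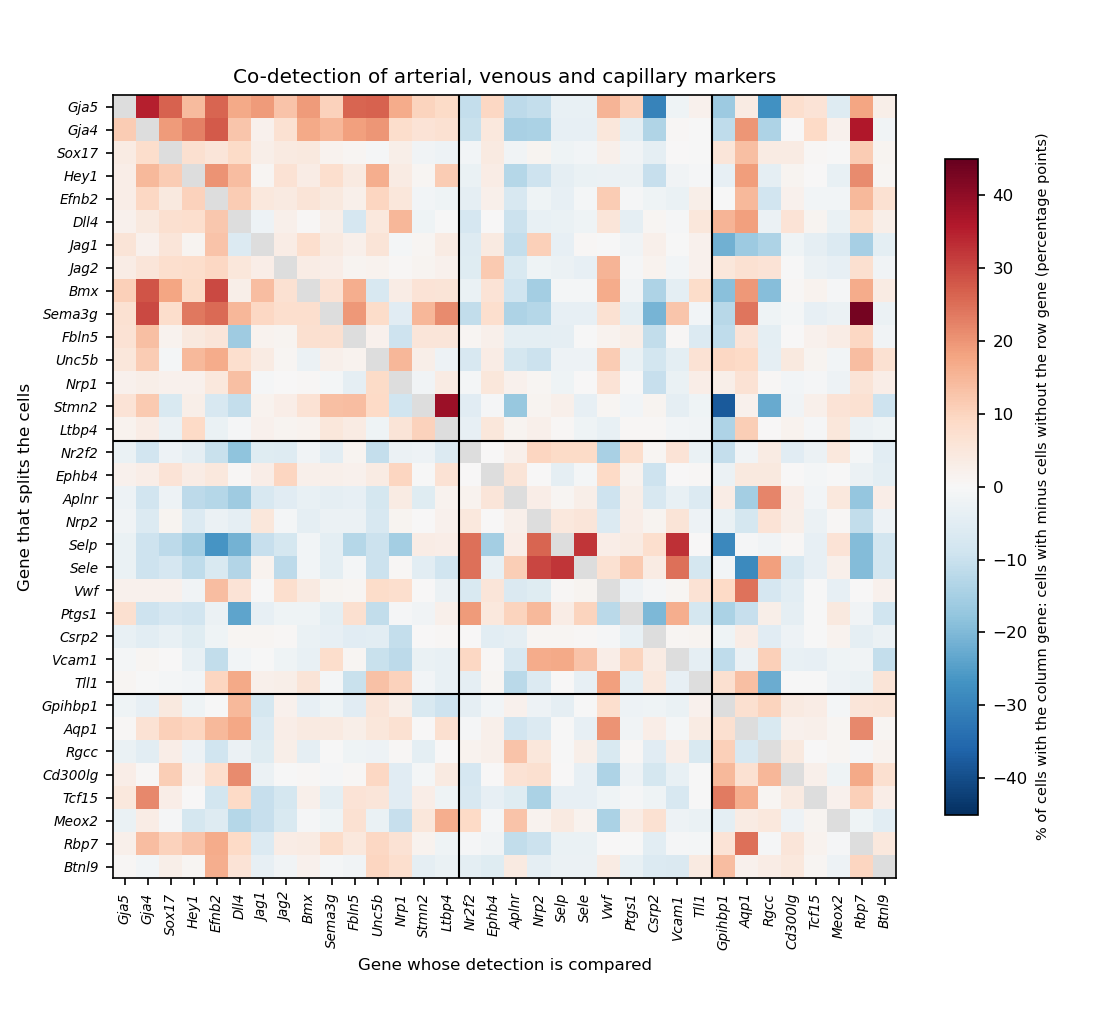
Co-detection in 765 thinned non-tip cells pooled over 5 tumours, where colour gives the percent of cells with the column gene among cells with the row gene minus that among cells without it, in percentage points, and black lines divide arterial, venous and capillary genes. Red squares mark Gja4 with Rbp7 (63.2% against 27.3%) and with Efnb2 (66.2% against 38.7%), and Selp with Sele (34.6% against 2.30%).

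Sums of non-tip cells were then compared between the 3 tumours with BP in the label and the 2 without, the only grouping with more than 1 tumour on each side. No gene passed. Of 9614 genes tested outside the rule, 0 (0%) were called at an adjusted p under 0.05 by edgeR, 419 had a higher and 219 a lower level on the biphasic side at an unadjusted p under 0.05, and the smallest adjusted p was 0.187. DESeq2 called 9 genes higher, namely Aqp1, Cxcl10, Gadd45b, Ccnd2, Id2, Mt1, Mt2, Cdh11 and Trpm3, and 3 lower, Fabp4, Fabp5 and Depp1. In the endothelial-rich cells edgeR also called 0, where no adjusted p was below 0.251, and 244 and 188 genes had an unadjusted p under 0.05.

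Aqp1, Ccnd2 and Cxcl10 had values that did not overlap between the sides. Aqp1 had a log2 fold change of 1.23 ± 0.26 (SE) with an adjusted p of 0.342 by edgeR, and of 1.24 ± 0.28 with an adjusted p of 0.0195 by DESeq2. Ccnd2, a cyclin of early cell cycle entry, stood at 554, 510.0, 718, 157 and 208 CPM, a log2 fold change of 1.70 ± 0.25 (adjusted p = 0.187). Cxcl10, a chemokine that interferon induces, stood at 209, 173, 203, 58.2 and 75.7 CPM, a log2 fold change of 1.56 ± 0.24 (adjusted p = 0.187) that was 1.90 in the endothelial-rich cells. Ccnd2 was smaller there, at 1.14. Non-overlap alone was common, since 19% of all genes were higher and 8.65% lower without overlap. The other genes with the smallest p were Sox9, Id2 and Tent5a, at log2 fold changes of 3.39, 1.76 and 3.98, and on the lower side Pvt1, Gm10076, Ddah1, Depp1 and Serpine3, at -1.98, -1.12, -0.95, -2.47 and -1.34. Their adjusted p-values ran from 0.187 to 0.441. In the endothelial-rich cells Id2 was at 0.70, and Sox9 and Tent5a were not tested. Sums of the 9 synovial sarcoma list genes, of which Tle1 takes the place of Adgrb3 named above, stood at 300, 178, 304, 101 and 237 CPM, and their part in these values was not tested.

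By list, the interferon response genes leaned to the biphasic side and the capillary genes away from it. Of 15 interferon genes tested, 14 had a positive log2 fold change, with a median of 0.37 against 0.03 over all genes. Neither edgeR nor DESeq2 called any, and 3 had an unadjusted p under 0.05 in edgeR. Without overlap, 7 of 15 were higher, among them Ifit1, Irf7, Ifi44, Rsad2 and Usp18, against the 19% of all genes. The endothelial-rich cells gave 8 of 15 against 16.2%, with a median of 0.51. Irf7, an interferon regulatory factor, stood at 20.5, 27.9, 15.7, 10.1 and 9.47 CPM, the last from 1 UMI. Of 11 capillary genes the median was -0.80, and 5 (Fabp4, Fabp5, Cd300lg, Rbp7 and Btnl9) were lower without overlap against 8.65% of all genes, with Aqp1 higher. In the endothelial-rich cells the capillary median was -0.66, and 3 of 11 (Fabp4, Fabp5 and Btnl9) were lower without overlap against 10.4% of all genes. With cells thinned before the tip rule the median was -0.37 over 9 genes. For Fabp4, Fabp5 and Rbp7 the PD+MP value came largely from the single cell described above.

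In the remaining lists edgeR and DESeq2 called 0 genes, and in edgeR 2 of 13 venous, 1 of 16 arterial and 4 of 13 basement membrane genes had an unadjusted p under 0.05. Over all genes, 19% were higher and 8.65% lower without overlap, and in the endothelial-rich cells 16.2% and 10.4%. Genes without overlap in these lists are to be read against those shares. Among venous genes, Nrp2 and Cpe were higher and Nr2f2 lower without overlap, with a median of -0.11. The venous median turned to 0.14 in the endothelial-rich cells, with 9 of 13 positive, where Csrp2 was higher and Nr2f2 lower without overlap and Nrp2 and Cpe overlapped. Of 16 arterial genes only Fbln5 did not overlap, with a median of 0.02. Sox17, Dll4, Jag2 and Nrp1 were higher and Fbln5 lower without overlap in the endothelial-rich cells, where the arterial median was 0.20. Of 13 basement membrane genes, 12 had a negative fold change, with a median of -0.34. Without overlap, Col4a1, Col4a2, Nid2 and Hspg2 were lower and Lama5 higher. The median was -0.25 in the endothelial-rich cells, with 9 of 13 negative. There Col4a1, Col4a2, Lamb2 and Nid2 were lower and Lama5 again higher without overlap. Col4a1, a chain of collagen IV, stood at 1940, 1720, 1950, 2395 and 2802 CPM. Of 10 genes induced by tissue dissociation, 9 were positive, with a median of 0.31, and Fosb, Jun, Egr1 and Atf3 were higher without overlap. The median was 0.29 in the endothelial-rich cells, where Atf3 and Dusp1 were higher without overlap. Dissociation genes thus leaned to the same side as the interferon genes, and their part in that result was not tested. The proliferation list had a median of -0.17 in all non-tip cells and -0.60 in the endothelial-rich cells, where 9 of 15 genes were lower without overlap against 10.4% of all genes. At least 3 proliferation genes were seen in 6.85%, 6.01%, 10.6%, 16.0% and 21.1% of thinned cells. The list medians were -0.13 for the tip genes outside the rule, -0.21 for endothelial genes outside the rule, -0.12 for leukocyte adhesion, 0.03 for Notch, 0.13 for VEGF and angiopoietin, 0.24 for antigen presentation and 0.08 for hypoxia genes. Those of other cells were 1.66 for synovial sarcoma, 1.72 for fibroblast, 1.21 for mural and 0.63 for macrophage genes, over 3 or 4 genes each.

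Non-tip cells were next set against the tip cells of the same tumour. Both classes were cut on the cells' own UMIs of 4 genes in these libraries, and the deeper cells fell into the tip class more easily. The p-values below therefore tell how steady a difference was over 5 tumours and are not independent support for the classes. Of 11638 genes outside the rule, 732 were higher in non-tip cells (6.29%) and 573 lower (4.92%), so 11.2% were called in either direction. In the endothelial-rich cells 321 of 10410 were higher (3.08%) and 395 lower (3.79%), 6.88% in all. When all cells were first thinned to 2000 UMIs and then sorted by the tip rule, 47 of 7408 genes were higher (0.634%) and 61 lower (0.823%), 1.46% in all.

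Arterial genes rose in part in non-tip cells, and none was called lower. Of 17 tested, 6 were higher (Gja4, Gja5, Bmx, Stmn2, Ltbp4 and Jag1), with a list median of 0.27 on the log2 scale against 0.04 over all genes. At an unadjusted p under 0.05 in edgeR, 2 were lower. The endothelial-rich cells gave 7 higher, with a median of 0.35 against 0.00. Jag2 and Sema3g were called there, and Jag1 was not, at 0.42 (adjusted p = 0.0839). Gja4 stood at 16.2, 74.6, 10.4, 37.6 and 24.8 CPM in tip cells, below the non-tip value in 5 of 5 tumours, a log2 fold change of 1.16 ± 0.21 (SE, adjusted p = 0.00113). Bmx had tip values of 10.4, 22.2, 6.09, 1.20 and 6.195 CPM and was higher by 1.41 ± 0.34 (adjusted p = 0.0103), again in 5 of 5 tumours. Gja5 was higher by 0.87 ± 0.25 (adjusted p = 0.0285, called in 9 of 19 settings), Stmn2 by 1.495 ± 0.36 (0.00989), the latent TGF-beta binding protein Ltbp4 by 0.58 ± 0.14 (0.00927) and Jag1 by 0.60 ± 0.15 (0.0107). Efnb2, Sox17, Dll4 and Nrp1 were not called, at 0.14, 0.04, -0.26 and -0.24. Dll4 is also on the list of tip genes outside the rule. With cells thinned before the tip rule edgeR called 0 of 16 arterial genes, with 2 at an unadjusted p under 0.05. Calls over all genes also fell there, from 11.2% to 1.46%. Gja4 then had a log2 fold change of 0.54 (adjusted p = 0.434) and Bmx of 1.29 (0.220). Stmn2 was at 0.74, Gja5 at 0.27, Ltbp4 at 0.19 and Jag1 at 0.08, and the list median was 0.12. Thinning removed counts and also changed which cells fell into each class, and the part of each in the lost calls was not tested.

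Capillary genes moved both ways. Rbp7 stood at 159, 255, 115, 201 and 279 CPM in tip cells and was higher in non-tip cells in 5 of 5 tumours, by 1.04 ± 0.10 (adjusted p = 5.98e-06). It was called in the endothelial-rich cells as well, at 1.27 (1.27e-11), and with cells thinned before the tip rule, at 0.83 (2.13e-05). Gpihbp1 stood at 1036, 1171, 637, 1036 and 542 CPM in tip cells and was lower in non-tip cells in 5 of 5 tumours, at -0.59 ± 0.075 (adjusted p = 6.97e-05). Rgcc, at 274, 308, 785, 627 and 746 CPM in tip cells, was lower at -0.55 ± 0.10 (adjusted p = 0.00146). Both held after thinning, at -0.47 and -0.57 (adjusted p = 0.00157 and 0.00034). Aqp1 was not called, at 0.03 ± 0.13 (adjusted p = 0.915), with tip values of 1169, 1147, 747, 220 and 269 CPM. Of 12 capillary genes tested, 3 were higher, since Cd36 and Fabp5 passed along with Rbp7, and 2 were lower. Most Cd36 and Fabp5 UMIs of the PD+MP non-tip sum came from the single cell described above. Fabp5 turned to -0.55 with cells thinned before the tip rule and was not called there.

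Among venous genes, Selp and Csrp2 rose. Of 14 tested, edgeR called 2 higher and 0 lower, with a median of 0.12 and 2 lower genes at an unadjusted p under 0.05. DESeq2 called 0. Selp stood at 28.1, 0.583, 69.5, 30.7 and 99.1 CPM in tip cells and was higher in 4 of 5 tumours, by 1.04 ± 0.33 (adjusted p = 0.0460). In BP replicate 1 a single cell held most non-tip Selp UMIs, and without it the level was close to the tip value. The values were also close in PD+MP, and the order was reversed in MP+BP. Selp was higher by 1.28 in the endothelial-rich cells (0.00122) and by 2.03 with cells thinned before the tip rule (0.00106), and called in 11 of 19 settings. Csrp2 was higher by 0.35 ± 0.11 (0.0433) but stood at -0.24 in the endothelial-rich cells, where it was not called, and passed in 6 of 19 settings. Ephb4 and Ackr1 were called higher and Cpe lower only in the endothelial-rich cells, at 0.45, 2.80 and -0.84. All non-tip Ackr1 UMIs of BP replicate 1 came from a single cell. Nr2f2, Aplnr and Vwf were not called, at 0.10, 0.19 and -0.27. Markers of leukocyte adhesion went 2 up and 2 down of 9, with Selp and the junction protein Jam2 (0.61 ± 0.13, adjusted p = 0.00363) higher and Cd34 and F11r lower (-0.45 and -0.43). The 2 lower calls were lost in the endothelial-rich cells. With cells thinned before the tip rule 3 of 8 were higher and 0 lower, with a median of 0.35, against 0.634% of all genes higher. These were Selp, Jam2 at 1.11 (adjusted p = 0.00088) and Icam1 at 0.66 (0.00608).

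**Figure D5:**
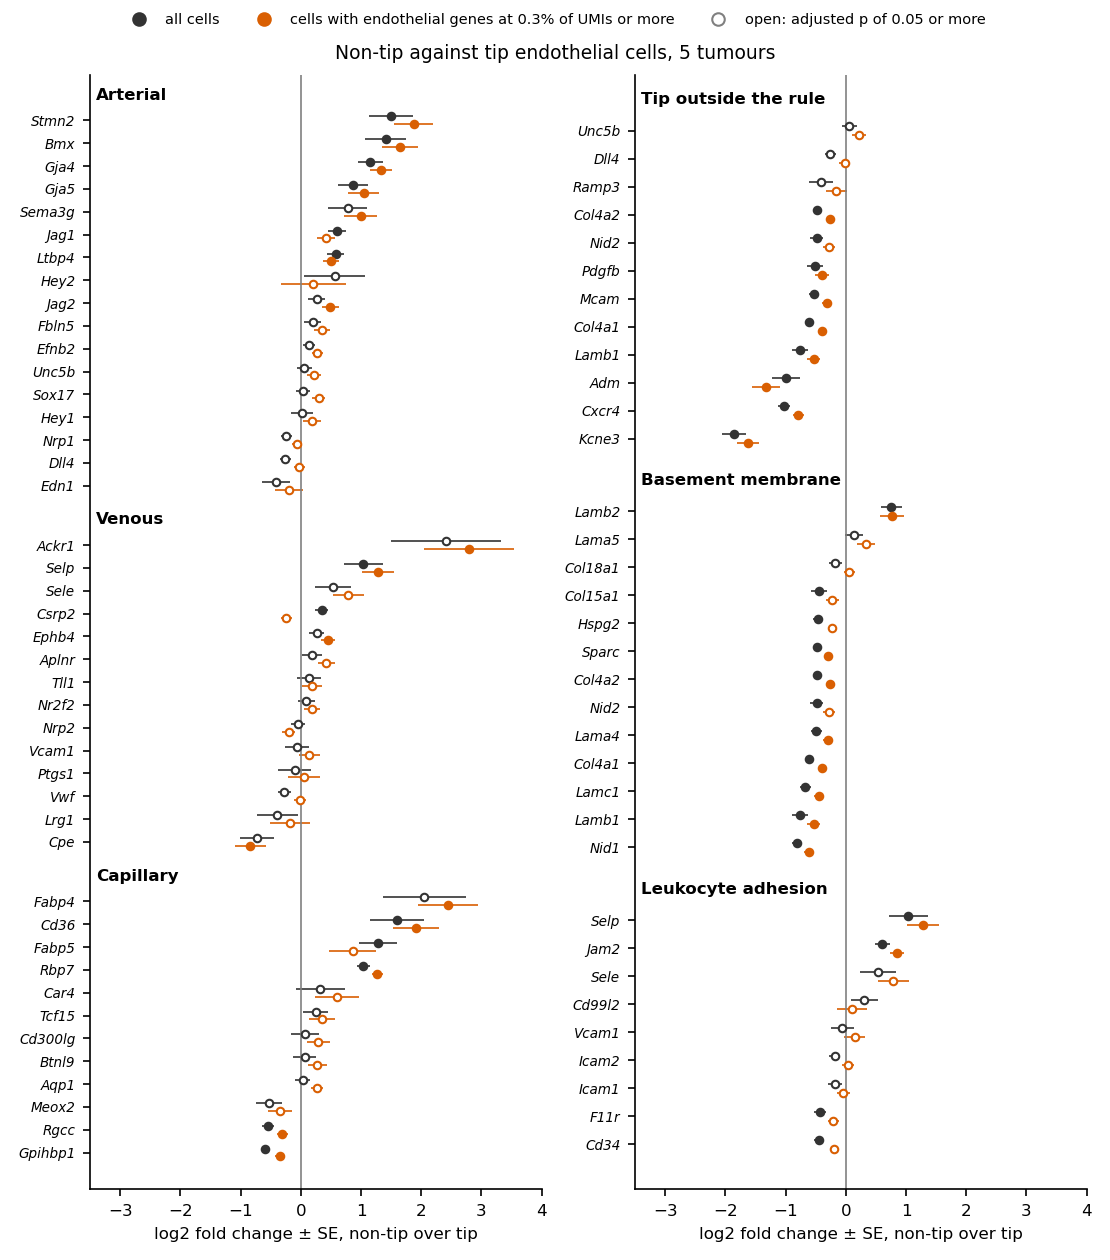
Log2 fold change of non-tip over tip endothelial cells for listed genes, with the standard error of the edgeR fit, for all cells and for cells with endothelial genes at 0.3% of UMIs or more, open where the adjusted p was 0.05 or more. Rbp7 (1.04) and Gja4 (1.16) lie to the right of 0, and Gpihbp1 (-0.59), Cxcr4 (-1.03) and Kcne3 (-1.86) to the left.

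Tip cell genes that the rule had not used were lower in non-tip cells. Of 12 tested, 9 were called lower and 0 higher, with a median of -0.52. The counts were 8 in the endothelial-rich cells and 9 with cells thinned first. Kcne3 (chr7:100176502-100184869, + strand), a potassium channel subunit, stood at 23.7, 22.0, 6.90, 17.7 and 0 CPM in non-tip and 73.5, 86.9, 14.6, 71.0 and 55.8 CPM in tip cells, a log2 fold change of -1.86 ± 0.20 (adjusted p = 1.02e-05). Cxcr4 (chr1:128588199-128592293, - strand), the receptor for the chemokine Cxcl12, stood at 192, 167, 122, 176 and 66.3 CPM in non-tip and 434, 332, 255, 266 and 155 CPM in tip cells, a log2 fold change of -1.03 ± 0.11 (9.04e-06). Both were lower in 5 of 5 tumours. The vasodilator peptide gene Adm was lower at -0.997 ± 0.24 (0.00862), and the pericyte attractant Pdgfb at -0.51 (0.020).

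Basement membrane genes fell together, and 4 of them (Col4a1, Col4a2, Nid2 and Lamb1) are also on the tip list. Of 13, 10 were lower and 1 higher, with a median of -0.47. The counts were 7 lower in the endothelial-rich cells and 6 with cells thinned first. Nid1, which links laminin to collagen IV, stood at 229, 266, 218, 254 and 379 CPM in non-tip and 404, 464, 385, 403 and 542 CPM in tip cells, a log2 fold change of -0.81 ± 0.09 (adjusted p = 1.07e-05). Col4a1 was lower at -0.60 ± 0.07 (2.28e-05), the laminin chain Lamc1 at -0.67 and the collagen-binding Sparc at -0.47. Lamb2 was the 1 member that rose, by 0.76 ± 0.17 (0.00716), in 5 of 5 tumours, but with cells thinned first it was at 0.26 and not called (0.863). Of 18 endothelial genes outside the rule, 7 were lower (Esam, Eng, Robo4, Ecscr, Sox7, S1pr1 and Cd34), with a median of -0.21. Only 2 were lower in the endothelial-rich cells, with a median of 0.02.

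No antigen presentation, interferon or proliferation gene was called in the sums of all cells, while 2 hypoxia genes were lower. Of 12 antigen presentation genes and 16 interferon genes, edgeR and DESeq2 called 0, with 3 and 0 at an unadjusted p under 0.05 in edgeR and medians of 0.00 and -0.07. At an adjusted p under 0.05, edgeR called 2 of 9 hypoxia genes (Ankrd37 and Pfkp) and 1 of 10 dissociation genes (Dusp1) lower, against 4.92% of all genes. In the endothelial-rich cells 3 of 9 hypoxia genes (Ldha, Ankrd37 and Pfkp) and 0 of 10 dissociation genes were lower, against 3.79%. With cells thinned before the tip rule 1 of 8 hypoxia genes was lower, Ankrd37 at -1.38 (0.00838), against 0.823%. The Notch list had 1 of 12 called, Jag1 (Jag2 in its place in the endothelial-rich cells), and the list of VEGF and angiopoietin genes 3 of 9, with Vegfa and Angpt1 higher and Flt4 lower. Vegfa was at 1.29 in all cells (0.00397) but 0.22 in the endothelial-rich cells (0.785). Flt4 was not called there either, and Angpt1 was not tested, while the receptor Tek and the ligand Vegfc were higher there, at 0.46 (0.00803) and 0.70 (0.00122). With cells thinned first edgeR called 0 of 6, with 2 at an unadjusted p under 0.05. Of 16 proliferation genes both tools called 0, with 2 at an unadjusted p under 0.05 in edgeR and a median of -0.04. In the endothelial-rich cells 16 of 16 were negative and 2 were lower, Ube2c at -0.89 (3.52e-05) and Mcm3 at -0.68 (0.0239).

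Genes of other cells were among the largest differences. Of 8 synovial sarcoma genes 6 were higher in non-tip cells, with a median of 2.02, and of 5 fibroblast genes 4, with a median of 1.91. Among the endothelial-rich cells edgeR called 0 of 3 and 0 of 2, with 1 each at an unadjusted p under 0.05. Summed CPM of the sarcoma list was 101 to 304 in non-tip cells, 80.8 to 130 in the endothelial-rich cells and 52.7 to 121 in tip cells. That of the fibroblast list was 22.8 to 1014, 8.36 to 152 and 16.6 to 274. Of the 4 lymphatic genes tested, Prox1 and Reln were higher, and neither was in the endothelial-rich cells, at 0.36 and 0.60. Both genes were frequent in tumour cells, with Prox1 in 24.4% and Reln in 36.4% of them. Of 4 haemoglobin and heme synthesis genes 3 were higher, and 4 in the endothelial-rich cells, and 0 with DESeq2. A single cell held 663 of the 1205 Hba-a1 UMIs in BP replicate 2 and another 289 of 290 in MP. Of 6 macrophage genes edgeR and DESeq2 called 0, with 0 at an unadjusted p under 0.05, as for 2 neutrophil and 2 platelet genes, and 1 of 5 mural genes, Abcc9, was lower. No T or NK cell gene passed the filter on low counts.

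Outside the lists, the called genes with the largest change in the same direction in all 5 tumours were taken. On the higher side these were Mgp, Stra6, Sdc4, Nebl, Irx1, Trpm3, Tbx20, Prdm6, Ntng1 and Gbx2, at log2 fold changes of 2.81 to 4.26. Of these, Mgp, Nebl and Trpm3 were called in the endothelial-rich cells, at 2.55, 3.04 and 1.79. Sdc4 was not, at 0.79 (0.238), and the other 6 had too few counts there to be tested. Nebl, which encodes an actin-binding protein, stood at 75.5, 85.4, 90.9, 46.8 and 9.47 CPM in non-tip and 2.14, 5.83, 14.6, 13.8 and 0 CPM in tip cells, a log2 fold change of 3.02 ± 0.30 (adjusted p = 6.45e-06). For the calcification inhibitor Mgp, 432 of 433 PD+MP UMIs came from 1 cell, not the cell with Fabp4.

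On the lower side the genes were Gzmk, 8030442B05Rik, Gm34821, Plch2, Ttc9, AA467197, Gm45680, Ccn4, Bmp2 and Lcp2, at -2.60 to -1.34. The protease gene Gzmk, known from lymphocytes, stood at 10.8, 8.46, 2.51, 12.7 and 18.9 CPM in non-tip and 64.4, 69.4, 17.7, 56.3 and 24.8 CPM in tip cells, a log2 fold change of -2.60 ± 0.23 (adjusted p = 2.39e-06) that was -2.39 in the endothelial-rich cells. Its span (chr13:113171608-113225908, - strand) contains Esm1 (chr13:113209659-113218098, + strand), a gene of the tip rule. Gm34821 (chr7:100171416-100227207, - strand) contains the tip list gene Kcne3, which lies on the + strand. The part of these overlaps in the differences was not tested. The growth factor Bmp2 stood at 30.2, 63.4, 16.3, 6.33 and 18.9 CPM in non-tip and 108, 138, 36.6, 14.7 and 40.3 CPM in tip cells, at -1.40 ± 0.16 (2.76e-05). With cells thinned first, Bmp2 was at -0.76 and no longer called (0.175).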

How the data were processed

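UMI counts per gene and cell of 5 tumours were analysed, as deposited in filtered droplet matrices of 32286 features. The deposited counts are raw UMI counts that the authors made with Cell Ranger 7.2.0 (file headers) on mm10 (labels). The reference release and the intron setting are not given in the sources used here. Positions came from GENCODE M21 (GRCm38), which held 32158 of the features. Rows with the same symbol were summed. No cell annotation was used.

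For each class, the counts of a tumour were added up. The sums were tested by the quasi-likelihood test of edgeR 4.0.16 in R 4.3.3 (TMM, filterByExpr, Benjamini-Hochberg adjustment, calls at an adjusted p under 0.05), with the tumour as a block for non-tip against tip. The tumours are the only replicates, and p-values measure the spread between them. DESeq2 1.42.0 was an alternative. The 17 rule genes were left out of counts of calls. The tests were checked on simulated data. Intervals are exact 95% Poisson or binomial, and a count of 0 allows up to 3 counts. Comparator cells held at most 1 of the 8 endothelial genes and at least 10 UMIs of C1qa, C1qb and C1qc (macrophages), 5 of Adgrb3 (tumour cells) or 10 of Rgs5 (mural cells). Doublets were scored with Scrublet (scanpy 1.11.5), and the highest scores were marked, up to a share that grew with the cells scored, but kept in the main analysis.

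Members and gene lists were chosen with earlier results of these data known. Named genes were list genes and, outside the lists, up to 10 called genes per direction with the largest change that moved the same way in every tumour. Where fewer than 5 genes were called, the 5 with the smallest p per direction were named. Alternatives covered other filters, cell limits, thinning, doublet removal, DESeq2 and leaving out each tumour. The values of some list genes are not reported here.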

Additional observations from a re-analysis of the deposited data

Results flagged for a closer look

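The proliferation list differed in direction between tumours when non-tip cells were set against tip cells. Its median log2 difference was 0.46 and 0.22 in BP replicates 1 and 2, 0.09 in MP+BP, -0.63 in MP and -0.42 in PD+MP, so the 3 tumours with BP in the label averaged 0.78 above the 2 without. In the endothelial-rich cells the medians were -0.15, 0.13, -0.29, -0.69 and -0.10. Col1a2, a fibrillar collagen chain, was higher in the non-tip cells of the 3 biphasic-label tumours, at 21.6, 11.8 and 107 CPM against 9.15, 1.75 and 1.83 in tip cells, and had 0 UMIs in the non-tip cells of MP and PD+MP, against 0.602 and 3.10 CPM in tip cells. The sides differed by 3.96 on the log2 scale. Those UMIs came from 2, 7 and 3 cells. Neither difference was tested.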

How the results depend on the processing

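For the biphasic label, the 0 genes higher and 0 lower became 9 and 3 with DESeq2 and 171 and 22 with no filter beyond 1 UMI. Leaving out 1 tumour at a time gave 0 to 22 higher and 0 to 4 lower, with 2 and 2 without MP, where the lone PD+MP tumour is assumed to vary like the others, and 22 and 4 without MP+BP. For non-tip against tip, the 732 higher and 573 lower genes became 120 and 50 without the tumour as replicate block, which pairs the classes since both come from the same library. They became 310 and 361 with at least 5 endothelial genes, 305 and 279 with the other-cell genes at 0 UMIs, 47 and 61 with cells thinned before the tip rule, and 321 and 395 in the endothelial-rich cells. Leaving out 1 tumour gave 409 to 677 higher and 286 to 718 lower, with 409 higher without BP replicate 1, 447 higher and 286 lower without BP replicate 2 and 470 higher without MP+BP. The cause of these changes was not tested. The endothelial-rich cells shared 188 higher calls with all cells (25.7% of 732, 58.6% of 321) and 313 lower ones (54.6% of 573, 79.2% of 395). The 1042 non-tip cells became 580 with at least 1500 genes and 689 with no tip UMI. The difference of 1.58 percentage points in share kept its direction, and fell to 0.34 without PD+MP, and its p could not pass 0.05 in this design. Of single genes, 434 values kept theirs, 16 lost the call, 19 gained it and 1 moved. None of these reversed, but of the listed genes called non-tip against tip Fabp5 (-0.55 to 1.60) and Csrp2 (-0.24 to 0.46) changed sign. PD+MP, with 22 cells, limits every value of its label.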
